A study of Mus musculus with 4 samples.

Results

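The 10 genes described here code for the heat shock proteins Hsp70, Hsp90 and Hsp60 and for their helper proteins. They were measured in the hearts of mice that carried a Sirt1 transgene and of wild type mice. Sirt1 is an NAD-dependent protein deacetylase, and the series asked how it regulates gene expression in the heart. Every probe set annotated to exactly 1 symbol among Hspa1a, Hspa1b, Hspa8, Hsp90aa1, Hsph1, Dnaja1, Dnajb1, Chordc1, Hspd1 and Hspe1 was taken. That gave 24 of 45037 probe sets and all 10 genes, of 18193 genes measured. The genes were chosen partly on their log2 signals on these arrays, the contrast of the array NTg 2 with the other arrays included. Every difference of NTg 2 below is therefore a description without a test.

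Per the labels, Tg-Sirt1 1 and Tg-Sirt1 2 came from 2 transgenic mice and NTg 1 and NTg 2 from 2 wild type mice. Each was 1 array of total heart RNA, from hearts that were snap frozen after a pentobarbital dose of 120 mg/kg. The sources used here do not give the age, sex or strain of the mice, nor the promoter or line of the transgene. The arrays labelled Tg-Sirt1 1 and NTg 1 were near-identical: over 45037 probe sets their differences had an SD of 0.0759 log2 units and a largest size of 0.48. The other 5 pairs of arrays had SDs of 0.342 to 0.405. Tg-Sirt1 1 and NTg 1 are called the near-identical pair, and every array keeps its label in what follows. For Sirt1 itself, Tg-Sirt1 2 read 7.93 and the array labelled Tg-Sirt1 1 read 7.16, against readings of 7.17 for NTg 2 and 7.30 for NTg 1, so the level was not high on both transgenic arrays. All values are log2 signals as deposited, and a difference of 0.5 log2 units, a 1.41-fold difference, is used as the limit for counts. The 8 cardiomyocyte markers read 12.24 to 14.09 on the 4 arrays, whereas the 6 skeletal muscle markers were all at 7.12 or below.

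Hsp70 proteins bind exposed stretches of unfolded proteins and release them in a cycle driven by ATP. J-domain proteins bring clients and start ATP hydrolysis, nucleotide exchange factors end the cycle, and Hsp90 with its cochaperones completes the folding of kinases and receptors. In the mitochondrial matrix, Hsp60 forms a chamber that Hsp10 closes like a lid. In a stressed cell, heat shock factor 1 binds repeats of the unit nGAAn near its target genes and raises their transcription. Cardiomyocytes contain much of the constitutive members, and inducible Hsp70 is known for its rise after heat or ischaemia.

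Repeats of this kind stand near the starts of most of these genes, and the following stretches are shown because they hold the sequence feature found in 7 of the 8 members with a promoter window. They come from RefSeq on the build GRCm38.p6, 5′ to 3′ on the gene's own strand, with each run of overlapping matches to GAANNTTC or TTCNNGAA in capitals. The Hspa1a stretch lies at chr17:34972232-34972281 (minus strand), the Hspa1b stretch at chr17:34959314-34959363 (minus), the Hspe1 stretch at chr1:55088038-55088087 (plus), the Dnaja1 stretch at chr4:40722323-40722372 (plus), the Chordc1 stretch at chr9:18292259-18292288 (plus) and the Hsph1 stretch at chr5:149636276-149636305 (minus).
Hspa1a: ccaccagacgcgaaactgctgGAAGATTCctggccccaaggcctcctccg
Hspa1b: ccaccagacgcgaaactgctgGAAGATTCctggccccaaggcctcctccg
Dnaja1: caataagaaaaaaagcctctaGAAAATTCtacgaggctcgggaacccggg
Hspe1: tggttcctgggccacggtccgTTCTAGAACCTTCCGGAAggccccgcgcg
Chordc1: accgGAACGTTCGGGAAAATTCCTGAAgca
Hsph1: gcagaTTCTGGAAAGTTCtcctcagtaggc

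Hspa1a and Hspa1b have the same letters in this stretch, and their promoter windows differ at only 4 of 300 bases. The Hspe1 stretch is also found, on the opposite strand, in a promoter window of Hspd1, because these 2 genes lie head to head and share the region between them. The windows run from 250 bases before an annotated start to 50 bases after it. The 8 members with a promoter window were all of them but Hspa8 and Hsp90aa1, and both strands were covered because each short motif reads the same on both strands and the longer motifs are complements of each other. A match of the short forms, GAANNTTC or TTCNNGAA, occurred in 7 of the 8, the exception being Dnajb1, and in 17.0% of 27025 genes with a window. Longer forms, in which GAANNTTC is followed by NNGAA or TTCNNGAA by NNTTC, contain the short ones. They occurred in 4 of the 8, namely Hspd1, Hspe1, Hsph1 and Chordc1, and in 0.662% of all genes. Other genes with a longer match are given only as a description. The 84 of them that were measured and are not members had a median difference of 0.03 log2 units between NTg 2 and the mean of the other 3 arrays. It was -0.02 over 14360 genes with a window. These genes were dimmer than most members. Their median levels were 7.045 and 7.195, whereas 8 of the 10 members were at 8.68 or above. Whether heat shock factor 1 acts on them in the heart was not tested.

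Among the 7 genes of the heat-inducible group, the signal was lower on NTg 2 than on each of the other 3 arrays in all 7. The median of NTg 2 minus the mean of the other arrays was -0.81 log2 units for them. It was -0.29, the value of Hspd1, for the 3 genes grouped as constitutive, namely Hspa8, Hspd1 and Hspe1. The group names are labels only. Whether any of the genes responds to heat was not measured here, and constitutive does not mean that a gene lacks such a response. The longer motif occurred in both groups, in Hspd1 and Hspe1 and in Hsph1 and Chordc1. The windows of Hspa1a, Hspa1b, Dnaja1 and Dnajb1 held no exact match, and Hspa8 and Hsp90aa1 had no window. Imperfect matches were not searched. Over all 10 genes the median was -0.66, with a range from -1.48 for Hsph1 to -0.02 for Hspa8. NTg 2 was the lowest array at 9 of the 10 genes, where 37.9% of all genes and 50.1% of genes above the median level share this. In the brightest of 4 equal classes by mean level, which holds 8 of the 10 genes, 66.5% of genes do. NTg 2 was also lowest at 21 of the 24 probe sets (29.6% of all probe sets). It was lower than every other array by at least 0.5 log2 units at 5 of the 10, where 5.34% of all genes and 7.78% of those above the median level are, and at 11 of the 24 probe sets (3.76%). These shares are given as background only, since the contrast had a part in the choice of the genes. For each gene the probe set with the highest mean over the arrays represents it, and the other probe sets are described beside it.

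**Figure D1:**
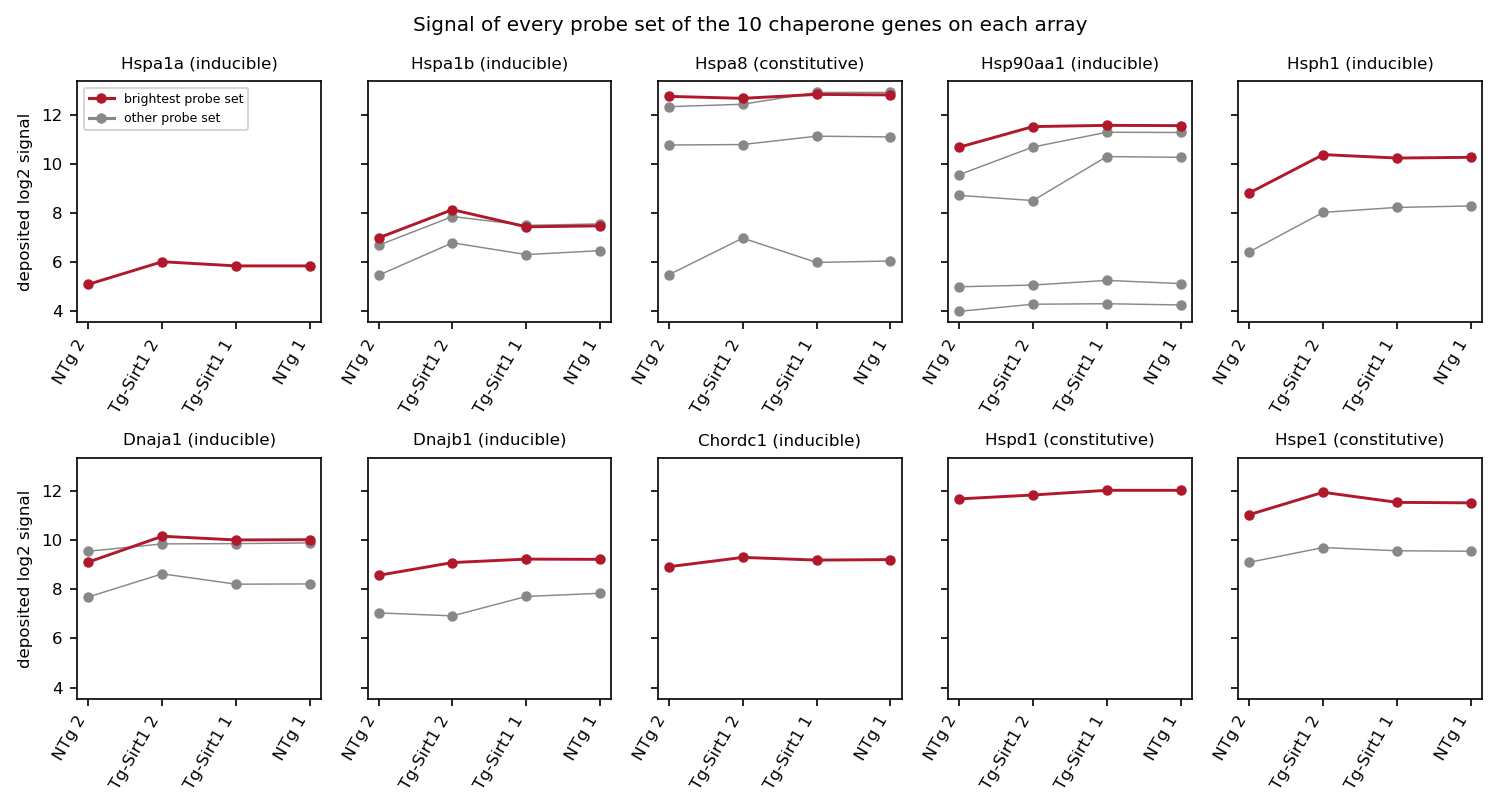
Deposited log2 signal (vertical axis) of all 24 probe sets on the 4 arrays (horizontal axis), 1 panel per gene, with the brightest probe set in red and others in grey. NTg 2, at the left of each panel, is the lowest array for 21 of the 24 lines, and the Tg-Sirt1 1 and NTg 1 points lie within 0.16 log2 units of each other for every probe set.

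The inducible Hsp70 proteins come from Hspa1a and Hspa1b, a pair of near-identical genes whose probe sets may share signal. Hspa1a had a single probe set, which read 5.09 on NTg 2, against 6.01 on Tg-Sirt1 2, 5.84 on the array labelled Tg-Sirt1 1 and 5.84 in NTg 1. Hspa1b read 6.98 on NTg 2, against 8.13 on Tg-Sirt1 2, 7.43 on the array labelled Tg-Sirt1 1 and 7.47 in NTg 1. In both genes NTg 2 was lowest, Tg-Sirt1 2 was highest, and the near-identical pair lay between. The other probe sets of Hspa1b ran in the same order, with 5.46 on NTg 2, against 6.78, 6.30 and 6.46 on Tg-Sirt1 2, the array labelled Tg-Sirt1 1 and NTg 1, and with 6.68 on NTg 2, against 7.85, 7.49 and 7.55. The Hspa1a probe set was dim, at the 38.0 percentile of mean level over all probe sets, and a dim probe set understates a difference in this kind of processing.

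Hspa8 codes for Hsc70, the constitutive member of the family, and it behaved unlike the inducible pair in its brightest probe set. That probe set read 12.74 on NTg 2, against 12.66 on Tg-Sirt1 2, 12.82 on the array labelled Tg-Sirt1 1 and 12.80 in NTg 1, so that the 4 arrays lay within 0.16 log2 units and Tg-Sirt1 2 was the lowest. A nearly as bright probe set read 12.32 on NTg 2 and 12.42 on Tg-Sirt1 2, against 12.90 on both arrays of the near-identical pair, and a probe set at 10.76 and 10.78 stood against 11.12 and 11.09. Hence these 2 were low on NTg 2 and on Tg-Sirt1 2 alike. The dimmest Hspa8 probe set went another way, at 5.48 on NTg 2, against 6.97 on Tg-Sirt1 2, 5.98 on the array labelled Tg-Sirt1 1 and 6.04 in NTg 1. The difference of NTg 2 from the other arrays was thus -0.02, -0.42, -0.24 and -0.85 log2 units in the order of brightness. The 2 brightest are _x_at probe sets, and with that kind left out Hspa8 had -0.24 and was lowest on NTg 2.

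Partners that act on Hsp70 were lower on NTg 2 as well, with Hsph1 the most. Hsph1 codes for Hsp110, which acts as a nucleotide exchange factor of Hsp70. It read 8.81 on NTg 2, against 10.37 on Tg-Sirt1 2, 10.23 on the array labelled Tg-Sirt1 1 and 10.26 in NTg 1. This is 2.78-fold below the mean of the other arrays, which lay within 0.14 log2 units of each other. Its other probe set read 6.41 on NTg 2, against 8.02, 8.22 and 8.28, or 3.39-fold below them.

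Dnaja1, a J-domain partner of Hsp70, read 9.11 on NTg 2, against 10.16 on Tg-Sirt1 2, 10.01 on the array labelled Tg-Sirt1 1 and 10.02 in NTg 1. A probe set of Dnaja1 with nearly the same mean showed less of it, with 9.55 on NTg 2, against 9.85, 9.86 and 9.89. The remaining one read 7.69 on NTg 2, against 8.63, 8.21 and 8.22. All 3 were lowest on NTg 2, but the difference from the other arrays ran from -0.95 to -0.32 log2 units.

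Dnajb1, also called Hsp40, is the J-domain protein that rises most typically with Hsp70 after heat. Its brightest probe set read 8.57 on NTg 2, against 9.09 on Tg-Sirt1 2, 9.23 on the array labelled Tg-Sirt1 1 and 9.22 in NTg 1. The dimmer probe set read 7.04 on NTg 2, against 6.92 on Tg-Sirt1 2, 7.71 on the array labelled Tg-Sirt1 1 and 7.84 in NTg 1. NTg 2 was therefore below the near-identical pair in both, but below Tg-Sirt1 2 only in the brighter.

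Hsp90 alpha, from Hsp90aa1, is the stress-inducible form of Hsp90, and its 5 probe sets differed most among themselves. The brightest read 10.67 on NTg 2, against 11.51 on Tg-Sirt1 2, 11.56 on the array labelled Tg-Sirt1 1 and 11.55 in NTg 1. A 1.83-fold difference from the mean of the other arrays followed, and those 3 arrays lay within 0.05 log2 units. The probe set next in brightness read 9.55 on NTg 2, against 10.68 on Tg-Sirt1 2 and 11.28 and 11.27 on the near-identical pair. In the one after it NTg 2 was not the lowest array: it read 8.71 on NTg 2, against 8.50 on Tg-Sirt1 2, 10.29 on the array labelled Tg-Sirt1 1 and 10.26 in NTg 1. The 2 dim probe sets read 4.99 and 3.99 on NTg 2, with every array at 5.25 or below. Their differences from the other arrays were -0.15 and -0.29 log2 units. Chordc1, a CHORD-domain cochaperone of Hsp90, read 8.92 on NTg 2, against 9.30 on Tg-Sirt1 2, 9.19 on the array labelled Tg-Sirt1 1 and 9.21 in NTg 1, the smallest difference of the inducible group.

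Of the mitochondrial chaperonin, the chamber gene Hspd1 and the lid gene Hspe1 did not show the same order of arrays, although they share a promoter region. Hspd1 (Hsp60) read 11.68 on NTg 2, against 11.84 on Tg-Sirt1 2, 12.03 on the array labelled Tg-Sirt1 1 and 12.03 in NTg 1. Hspe1 (Hsp10) read 11.04 on NTg 2, against 11.95 on Tg-Sirt1 2, 11.54 on the array labelled Tg-Sirt1 1 and 11.52 in NTg 1. Both were lowest on NTg 2, while Tg-Sirt1 2 was below the near-identical pair for Hspd1 and above it for Hspe1. The other Hspe1 probe set had the order of the brightest, with 9.10 on NTg 2, against 9.70, 9.57 and 9.55.

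Set against each array in turn, NTg 2 differed by a median of -0.88 log2 units from Tg-Sirt1 2 over the 10 genes, -0.58 from the array labelled Tg-Sirt1 1 and -0.57 from NTg 1. At least 0.5 log2 units lower were 7 genes against Tg-Sirt1 2 (12.8% of all genes), 6 against the array labelled Tg-Sirt1 1 (8.75%) and 5 against NTg 1 (9.18%). The values against the near-identical pair are a single comparison given by 2 arrays, so they do not add to each other. In the inducible group the 3 medians were -0.92, -0.75 and -0.75, and among the constitutive genes -0.16, -0.35 and -0.35. Of the inducible genes, 6 lay further below on NTg 2 than Hspa8 and Hspd1 did against every array. Chordc1 did not: it differed by -0.29 from NTg 1 and -0.27 from the array labelled Tg-Sirt1 1, where Hspd1 differed by -0.35 from both. Hspe1 lay among the inducible genes, with -0.63 against -0.61 for Dnajb1 and -0.70 for Hspa1b. The difference between the medians of the groups was -0.52 log2 units, and -0.47 with only Hspa1a, Hspa1b, Dnajb1 and Hsph1 as inducible. With 7 and 3 genes and 1 array on the low side, no test of this difference was made.

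**Figure D2:**
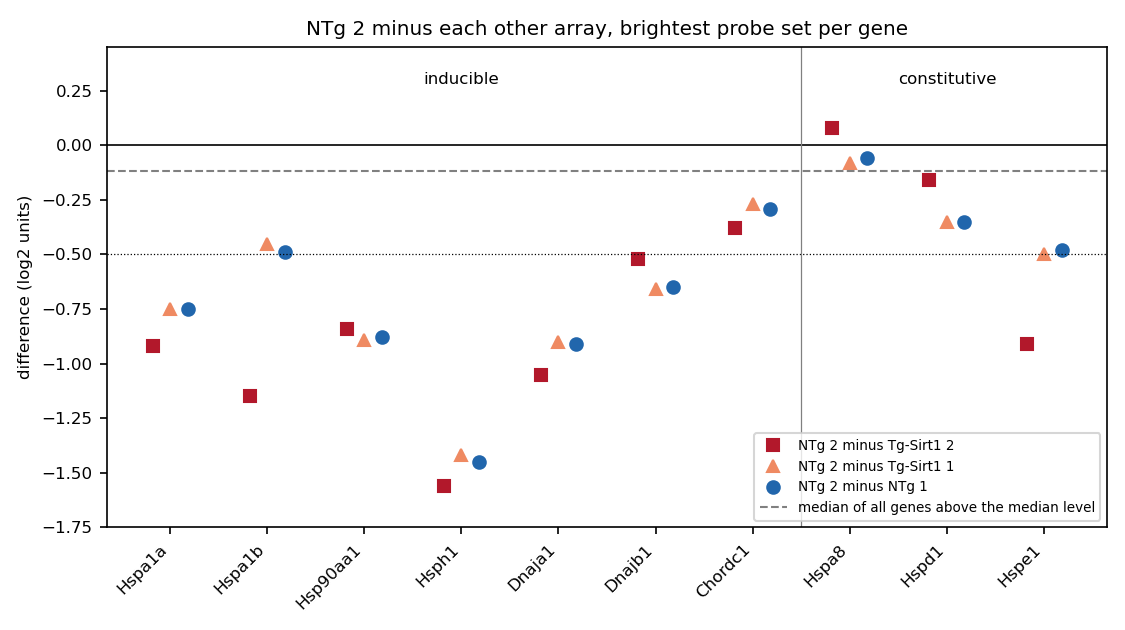
NTg 2 minus Tg-Sirt1 2 (squares), minus the array labelled Tg-Sirt1 1 (triangles) and minus NTg 1 (circles), in log2 units on the vertical axis, for the brightest probe set of each gene on the horizontal axis. The dotted line is at -0.5 and the dashed line at -0.12, the median of NTg 2 minus the mean of the other arrays over genes above the median level; Hsph1 lies lowest and Hspa8 around 0.

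Level and quality measures differed between the arrays too, and the 3′ minus 5′ control signal was largest on Tg-Sirt1 2. When genes are split by mean level into 4 equal classes, the median of NTg 2 minus the mean of the other arrays was -0.23 log2 units in the brightest class, at 8.68 or above, and 0.10 in the dimmest. The brightest class holds 8 of the 10 members, and NTg 2 was the lowest array at 66.5% of its genes. After a second quantile normalization, which removes such a shift of the whole distribution, the median over the 10 genes was -0.54, Hspa8 turned to 0.10, Chordc1 had -0.10 and Hspd1 -0.12. Of the 5 genes at least 0.5 log2 units below every other array, 4 remained so (3.26% of all genes), all but Dnajb1. The 3′ minus 5′ signal of Gapdh, which is larger where less of the 5′ end is labelled, was 0.69 log2 units on NTg 2, against 1.34 on Tg-Sirt1 2, 0.19 on the array labelled Tg-Sirt1 1 and 0.18 in NTg 1. For Actb it was 1.44 on NTg 2, against 1.92, 1.25 and 1.22. All 18 probe sets of the hybridization spike-in controls were highest on NTg 2 and lowest on Tg-Sirt1 2. Their median difference was 1.355 log2 units for NTg 2 minus the mean of the other arrays. For Tg-Sirt1 2 minus the near-identical pair it was -1.33. In size both exceed the median over the 10 genes. The part of these measures in the chaperone values was not tested.

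Markers of other heart cells differed on NTg 2 as well, and in bulk RNA fewer cells of a type and less RNA per cell cannot be told apart. All 7 fibroblast markers were lowest on NTg 2 (median difference -0.92), and the log2 of their summed signal was 13.67 on NTg 2, against 14.16 on Tg-Sirt1 2, 14.45 on the array labelled Tg-Sirt1 1 and 14.46 in NTg 1. Of 6 macrophage markers 5 were lowest on NTg 2, with a summed level of 11.98, against 12.43 to 12.44 on the other arrays. Of 6 endothelial markers 2 were lowest there, with a sum of 11.87 on NTg 2, against 11.96 to 12.32. Of the 5 neutrophil markers measured 4 were highest on NTg 2, with a sum of 9.58, against 8.62 to 8.74. The share of all genes highest on NTg 2 was not counted. S100a8 and S100a9 had the large differences, 1.72 and 1.58, against 0.35 for Ngp, 0.23 for Camp and -0.08 for Ltf. The cardiomyocyte sum was 16.64 on NTg 2, against 16.59 to 16.74, and 2 of its 8 markers were lowest on NTg 2. The erythroid sum, from 3 of 5 markers, was 8.58 on NTg 2, against 8.85 to 8.99, and the skeletal muscle sum 8.50, against 8.28 to 8.39. No marker was at 0, but gene means on this scale start at 3.18. Hba-a1, Myh4, Tnnt3 and Actn3 fell in the dimmest class by mean level, which ends at 5.75, and may be at background. The part of these cells in the chaperone values was not tested.

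Tg-Sirt1 2 can be set against the near-identical pair without NTg 2. Here the members did not go one way. Tg-Sirt1 2 was above both arrays of the pair at 6 of the 10 genes and below both at 4, where 52.4% of all genes were above and 35.7% below, and the median difference was 0.11 log2 units (0.04 over all genes). At 0.5 log2 units or more, 1 gene was higher, Hspa1b with 0.68 (3.18% of all genes), and 0 were lower (3.55%). Of the 24 probe sets, 2 were higher by as much (3.21% of all probe sets) and 3 lower (6.46%). Hspe1 was 0.42 above the pair, Hspa1a 0.17, Dnaja1 0.15, Hsph1 0.13 and Chordc1 0.10, against -0.05 for Hsp90aa1, -0.14 for Dnajb1, -0.15 for Hspa8 and -0.19 for Hspd1.

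Probe sets of the same gene did not always run the same way on Tg-Sirt1 2. Of the 7 genes with several probe sets, 4 had differences of both signs between Tg-Sirt1 2 and the pair, and so did 61.6% of 9010 genes with several. For Hsp90aa1 and Dnaja1, among the 4, 1 of the signs rested on a single small difference, 0.005 for Hsp90aa1 and -0.025 for Dnaja1. For Hsp90aa1 the difference of Tg-Sirt1 2 ran from -1.78 to 0.01 log2 units over its 5 probe sets, and for Hspa8 from -0.48 to 0.96 over 4. The 3 Hspa1b probe sets were all higher on Tg-Sirt1 2, by 0.33 to 0.68, and both Dnajb1 probe sets had negative differences, of -0.86 and -0.14. Tg-Sirt1 2 was also the array with the largest 3′ minus 5′ control signal, given above, and which part of a transcript each probe set covers was not determined here.

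**Figure D3:**
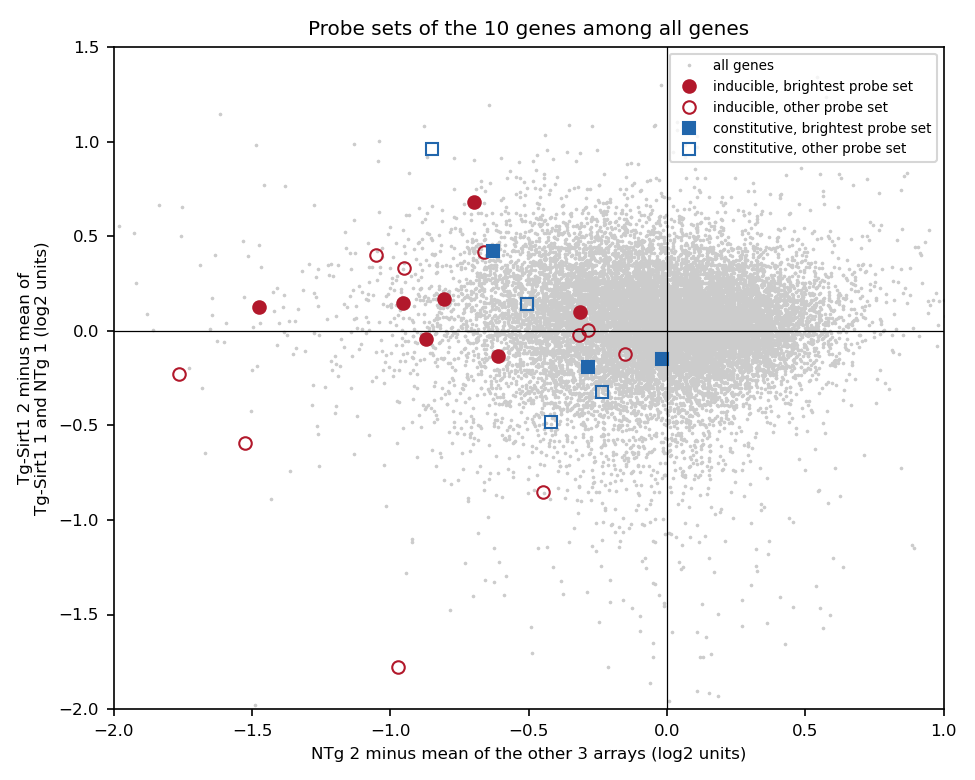
Each probe set of the 10 genes by NTg 2 minus the mean of the other 3 arrays (horizontal) and Tg-Sirt1 2 minus the mean of the near-identical pair (vertical), in log2 units, over all genes in grey; 79 of 18193 genes lie outside the axes. Inducible genes are circles and constitutive ones squares, filled for the brightest probe set; all 24 lie left of 0 on the horizontal axis, and they spread from -1.78 to 0.96 on the vertical one.

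Between the labels, no member passed the test. In limma, 0 of 45037 probe sets had an adjusted p under 0.05 (0% of all), 28 had an unadjusted p under 0.05, and 0 of those 28 were among the 24 probe sets of the members. The 28 are a share far below 0.05, so the limma p-values here were larger than a calibrated test would give. The highest log2 fold change was that of Hsph1, with a mean of 10.30 ± 0.10 in Tg-Sirt1 and 9.54 ± 1.03 in NTg (SD, n = 2 each), a fold change of 0.77 ± 0.47 (SE), a 95% confidence interval from -0.44 to 1.97 and an adjusted limma p of 0.996. Of the NTg arrays, NTg 2 (8.81) lay far below the Tg-Sirt1 mean and NTg 1 (10.26) near it. Hspa1b had a fold change of 0.56, Dnaja1 0.52, Hspe1 0.47, Hspa1a 0.46 and Hsp90aa1 0.43 on the log2 scale, with unadjusted p from 0.102 to 0.218. Dnajb1 had 0.27, Chordc1 0.18, Hspd1 0.08 and Hspa8 -0.03. All 10 had an adjusted limma p of 0.996. In total 9 of the 10 had a higher Tg-Sirt1 mean, where 53.6% of all genes do, with a median of 0.44 (0.02 over all genes). Both Tg-Sirt1 arrays lay above both NTg arrays only at Hspe1, 1 of 10, where 11.4% of all genes do. NTg 2 is an NTg array and its contrast had a part in the choice of the genes. That choice favoured positive fold changes, so the shares are background only.

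These fold changes moved with single arrays. Without NTg 2 the median over the 10 genes was 0.04, Hsph1 had 0.04, Dnaja1 0.07, Hspa1a 0.09, Chordc1 0.04, Hspe1 0.23 and Hspa1b 0.31, and Hsp90aa1, Dnajb1 and Hspd1 turned to -0.02, -0.06 and -0.10. Hspa1b and Hspe1 moved about as much without Tg-Sirt1 2, to 0.21 and 0.26. Without NTg 1 all 9 positive fold changes were larger, such as 1.49 for Hsph1, 0.87 for Hsp90aa1 and 0.98 for Dnaja1. With the array labelled Tg-Sirt1 1 left out, Hspa1b had 0.91 and Hspd1 turned to -0.02. The median was 0.75 when NTg 1 was left out, 0.30 for Tg-Sirt1 2 left out and 0.47 for the array labelled Tg-Sirt1 1 left out. Averaging the near-identical pair and counting it once, the median was 0.47 with the pair as NTg and 0.75 with the pair as Tg-Sirt1. Because an array of each label was near-identical to the other, a test of 2 against 2 had hardly any power, so a lack of calls is no sign of equal expression. The smallest two-sided p that exact permutation of 2 against 2 arrays allows is 0.333.

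Of the chaperone lists outside the 10 genes, most lay near the background on NTg 2. NTg 2 was the lowest array at 37.9% of all genes, 50.1% of genes above the median level and 66.5% of the brightest class. The median difference was -0.12 log2 units for genes above the median level and -0.23 for the brightest class, and the lists are given against these. In limma, 0 members of these lists passed in either direction. The cytosolic chaperonin TRiC, the ring that folds actin and tubulin, had all 8 subunit genes lowest on NTg 2, with a median difference of -0.45 log2 units, and 0 of them at least 0.5 below every other array. Cct3 read 11.46 on NTg 2, against 12.27 on Tg-Sirt1 2, 11.85 on the array labelled Tg-Sirt1 1 and 11.83 in NTg 1. Cct7 (-0.47) and Cct5 (-0.46) came next. All 8 TRiC genes are in the brightest class.

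Other Hsp70 and Hsp110 genes had a median of -0.13, with 3 of 11 lowest on NTg 2, a smaller share than over all genes. Hspa4l, a further Hsp110 gene, stood out with 8.35 on NTg 2, against 8.90 on Tg-Sirt1 2, 9.12 on the array labelled Tg-Sirt1 1 and 9.16 in NTg 1. Hyou1 of the endoplasmic reticulum and Hspa12a were instead higher on NTg 2, by 0.30 and 0.29. The Hsp90 genes of other compartments, Hsp90b1 of the endoplasmic reticulum and Trap1 of the mitochondrion, had -0.34 and -0.43, and Hsp90ab1 was not analysed here.

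Among 22 J-domain genes measured, 14 were lowest on NTg 2 (median -0.18), which lies between the values of genes above the median level and of the brightest class. Dnajb5 went the other way, with 9.82 on NTg 2, against 8.89, 8.92 and 8.92, while Dnajc13 (-0.59) and Dnaja4 (-0.57) were lower. The cochaperone list had 13 of 20 lowest on NTg 2 and a median of -0.27. St13, the Hsp70-interacting protein Hip, read 10.36 on NTg 2, against 11.38 on Tg-Sirt1 2, 10.97 on the array labelled Tg-Sirt1 1 and 10.98 in NTg 1. Fkbp5, an Hsp90 cochaperone and a known glucocorticoid target, was higher on NTg 2, at 9.54, against 8.64 to 8.66, and Cacybp was lower (-0.57).

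Chaperones of the mitochondrion and its proteases had a median of -0.14 with 7 of 11 lowest on NTg 2, again near the background. The largest differences were those of Trap1, Grpel1 (-0.37) and Lonp1 (-0.31). Those of the endoplasmic reticulum had -0.21 with 9 of 16 lowest, within the same background, and the largest were those of Manf (-0.59), Creld2 (-0.54) and Canx (-0.52). In the list of heat shock factors and their regulators the median was -0.23 and 4 of 6 were lowest, with the elongation factor gene Eef1a1 at -0.99, Hsbp1 at -0.46 and Vcp at -0.43. Hsf1 was not analysed here. Other targets of heat shock factor 1 had a median of -0.19 with 9 of 17 lowest, a share close to that of genes above the median level, among them the collagen chaperone gene Serpinh1 (-0.62). Cdkn1a, the cell cycle inhibitor gene on that list, was highest on NTg 2 instead (1.45).

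**Figure D4:**
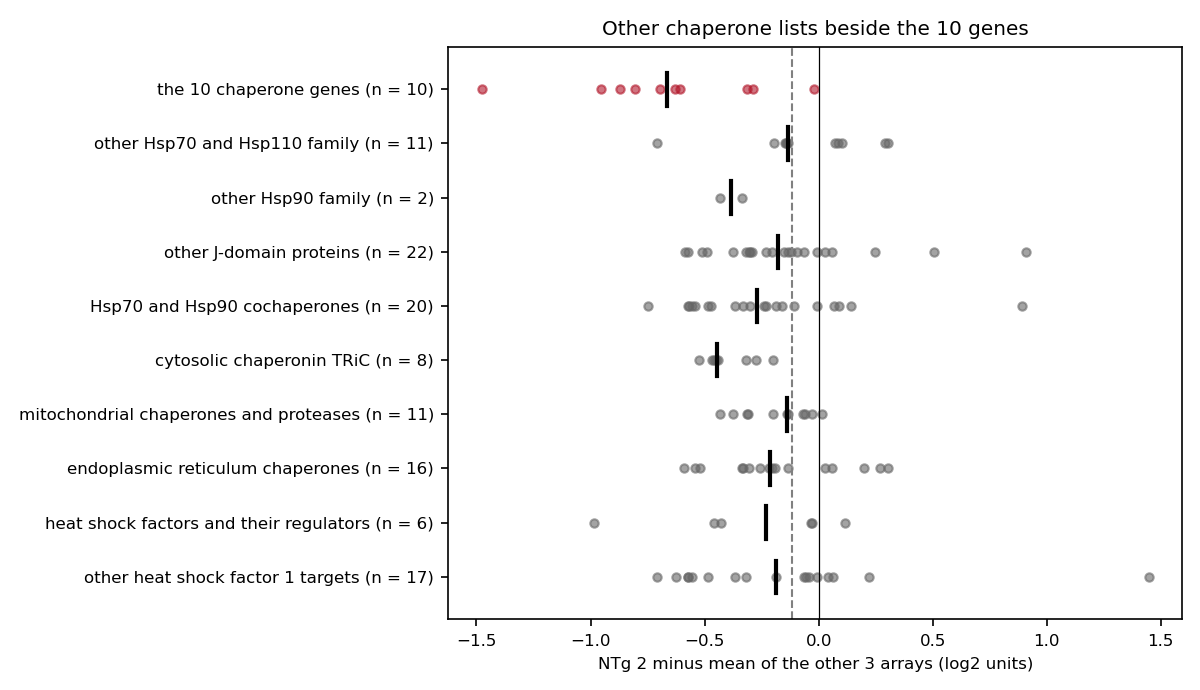
NTg 2 minus the mean of the other 3 arrays in log2 units (horizontal), with 1 point per gene, for the 10 genes (top, red) and 9 further chaperone lists (grey). Black bars are list medians, from -0.66 for the 10 genes to -0.13 for the other Hsp70 and Hsp110 genes, and the dashed line at -0.12 is the median of genes above the median level.

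The pattern of Hsph1, the member with the widest range, was shared more closely by many other genes than by the other members. The likeness was the Euclidean distance over the 4 arrays between values centred on each gene's mean, where 0 is the same pattern. The 5 nearest of 18183 other genes were Tenm3, Shb, Pde1c, Myo5a and Pacsin1, at distances of 0.05 to 0.08 log2 units. Tenm3 read 6.15 on NTg 2, against 7.64, 7.53 and 7.54 on Tg-Sirt1 2, the array labelled Tg-Sirt1 1 and NTg 1. The nearest member, Dnaja1, lay at 0.45, and 131 other genes were nearer than it. With 4 arrays, of which 2 were near-identical, such likeness describes little more than the size of the gap of NTg 2.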

How the data were processed

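The values deposited by the authors are log2 signals, rounded to 2 decimals, for Affymetrix probe sets. Per the submitters' processing notes they were made with RMA and Affymetrix Expression Console (no version stated). RMA corrects background, quantile normalizes the arrays and summarises probes, so that a change in total RNA is removed and dim differences are damped. Precision is limited by having 4 arrays.

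Of 45101 probe sets, 64 controls were left out. Symbols came from the platform annotation: 34945 probe sets had 1 symbol, 932 several and 9160 none here. The fit used limma 3.58.1 in R 4.3.3 (lmFit, eBayes, two-sided, Benjamini-Hochberg over 45037 probe sets, threshold 0.05) with Tg-Sirt1 minus NTg. A run on simulated data checked only that the code works. Those arrays were independent and held no near-identical pair, unlike the arrays here. Differences of single arrays have no test. Named were all members, Hsf1 and Hsp90ab1, up to 3 genes per list by the largest difference of NTg 2, and the 5 genes most like the widest-ranging member. Genes, groups and lists were chosen with earlier results of these data known. Member sequences were matched by symbol in RefSeq tables, and the other measured genes with a promoter window by Entrez gene identifier.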

Additional observations from a re-analysis of the deposited data

How the results depend on the processing

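The count of 0 probe sets past the threshold in limma was the same under all 8 alternatives of its kind and with each array left out. Leaving out each array in turn gave a median fold change over the 10 genes of 0.0375 to 0.7525, a median of NTg 2 minus the other arrays of -0.76 to -0.57, and a difference between inducible and constitutive medians of -0.58 to -0.40. Under the other alternatives these 3 ran from 0.30 to 0.76, from -0.76 to -0.54 and from -0.58 to -0.35. For single genes, Hspa8 turned from -0.03 to 0.005 after centring, to 0.19 as the mean over its probe sets and to 0.025 without _x_at and _s_at probe sets, and Hspd1 turned to -0.015 with the near-identical arrays counted once as NTg; the cause was not tested. With 1 array left out, Hspa8 ran from -0.11 to 0.05, Hspd1 from -0.095 to 0.255, Hsp90aa1 from -0.015 to 0.865 and Dnajb1 from -0.06 to 0.59. The filter on dim probe sets left 9 genes, without Hspa1a. Equal numbers in the labels do not tie mice together, so the replicate block is given only here. With it 0 probe sets passed and Hsph1 kept a fold change of 0.77. Deviations of same-numbered arrays correlated at 0.293 over 45037 probe sets. The arrays numbered 1 are the near-identical pair, which pushes this correlation up, so it cannot show whether the numbers tie mice together. An arm left with 1 array is assumed to vary like the other label.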
